A study of Mus musculus with 7 samples.

Results

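Genes of S-phase DNA replication were examined in the transcriptome of LSK cells (Lin-Sca1+Kit+), the marrow fraction that contains hematopoietic stem cells and their earliest multipotent progeny. The set held 47 genes, chosen by name for their role in origin licensing, at the replication fork, in nucleotide supply and in the entry into S phase. All 47 were among the 24421 gene symbols counted, and all 47 passed the filter on low counts, as 13340 symbols did. Bulk RNA-seq had been made from 4 Ddx41+/+ and 3 Ddx41+/- samples, which are named here by their replicate numbers, 1 to 4 and 6 to 8. In both genotypes the donor marrow carried Rosa-CreERT2, a tamoxifen-inducible Cre recombinase expressed broadly from the Rosa locus, and the Ddx41+/- donors also carried a single floxed Ddx41 allele. Bone marrow mononuclear cells were transplanted into lethally irradiated BoyJ recipients. Both genotypes then received tamoxifen, 1 mg in 50 µl of corn oil, in 2 rounds of 5 daily injections, and marrow was taken for sorting at week 8 of the transplant. The labels name no donor-specific gate for these sorts, so that LSK cells of the irradiated host are not separated from donor cells by the description, and they do not give the age of the animals.

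Replication proceeds in steps that the groups of genes follow. In G1, the origin recognition complex (Orc1 to Orc6), Cdc6 and Cdt1 load the Mcm2-7 hexamer onto DNA, which licenses the origin. At the start of S phase, Cdc45 and the GINS complex join Mcm2-7 to form the active helicase with the help of Mcm10. DNA polymerase alpha with its primase starts each strand, RFC loads the sliding clamp PCNA, polymerases epsilon and delta extend the strands, RPA covers single-stranded DNA, and Fen1 and Lig1 process and seal Okazaki fragments. Many of these genes are transcribed at the G1/S boundary by E2F factors, and stem cells that rest in G0 are known to express them weakly, whereas cycling progenitors express them strongly. DDX41 is a DEAD-box RNA helicase. Whether the loss of 1 Ddx41 allele went with a different level of the replication genes was the comparison made here.

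Library totals ran from 32234499 to 43751290 counts, and the lowest count of any member in any library was 717 (Gins3). Expression is given as CPM, counts scaled to a common library size by the trimmed mean of M-values (TMM). Kit, one of the sorting markers, had a mean of 466 ± 32.2 CPM over the 4 Ddx41+/+ and 468 ± 19.4 CPM over the 3 Ddx41+/- samples (± SD), whereas Ly6a, which encodes Sca1, was at 20.9 ± 2.56 and 20.8 ± 8.82 CPM. Ddx41 itself was at 97.9 ± 6.43 CPM in Ddx41+/+ and 67.3 ± 2.63 CPM in Ddx41+/- samples, 68.8% of the Ddx41+/+ mean, with no overlap of the genotypes (log2 fold change -0.54, SE 0.071, edgeR quasi-likelihood test, Benjamini-Hochberg adjusted p = 0.0052). One library stood apart. On the first principal component of the 500 genes with the most variable expression, which held 31.1% of their variance, Ddx41+/- replicate 7 was at 35.7 and the other 6 libraries lay between -12.9 and 0.239. The set's sum and counts, the range of the group sums and values for most gene lists below are therefore also given without it. Ly6a then had a log2 fold change of -0.39 (unadjusted p = 0.0234, adjusted p = 0.597, edgeR). The 6 LSK gate genes (Kit, Ly6a, Ptprc, Cd34, Cd48 and Flt3) summed to 93.0% of the Ddx41+/+ mean, and to 94.1% without replicate 7. In all samples 4 of the 6 fold changes were negative. At an unadjusted p under 0.05 (edgeR) 2 were lower (33.3%), as 4.93% of all genes were. With replicate 7 left out 1 was lower (Ly6a), where 7.31% of all genes were called in either direction.

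E2F factors bind variants of an 8-base element, and the sequence just upstream of the start site is shown for members that are taken up below. RefSeq promoter windows (GRCm38.p6, 250 bases before to 50 after a gene's start) were on hand for 39 of the 47 members. The element was searched as the octamers TTTCCCGC, TTTCGCGC, TTTGCCGC and TTTGGCGC on both strands, so that neighbouring matches can overlap. It was found in 14 of the 39 members (35.9%), in 704 of 27025 genes with a window (2.6%), and in 1 of 21 genes of G2 and mitosis (4.76%). The 160 bases before the RefSeq start are printed 5′ to 3′ on the gene's strand, with octamer matches in capitals. Mcm5 and Mcm6 encode helicase subunits with several matches each, Pola1 had the highest fold change among the members, and Rpa2 and Chaf1b, which had the lowest, held no match in the whole window. They lie at chr8:75109349-75109508 (+) for Mcm5, chr1:128359706-128359865 (-) for Mcm6, chrX:93632156-93632315 (-) for Pola1, chr4:132768200-132768359 (+) for Rpa2 and chr16:93883741-93883900 (+) for Chaf1b.
Mcm5: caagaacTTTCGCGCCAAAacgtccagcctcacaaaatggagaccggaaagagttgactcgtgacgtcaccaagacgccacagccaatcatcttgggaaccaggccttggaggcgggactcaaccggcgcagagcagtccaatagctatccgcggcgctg
Mcm6: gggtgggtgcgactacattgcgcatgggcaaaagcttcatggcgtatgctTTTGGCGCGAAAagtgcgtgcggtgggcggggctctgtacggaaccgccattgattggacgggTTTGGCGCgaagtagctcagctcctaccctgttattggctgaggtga
Pola1: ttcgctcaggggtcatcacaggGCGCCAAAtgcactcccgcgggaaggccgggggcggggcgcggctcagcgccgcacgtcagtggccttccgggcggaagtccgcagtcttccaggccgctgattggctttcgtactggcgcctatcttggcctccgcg
Rpa2: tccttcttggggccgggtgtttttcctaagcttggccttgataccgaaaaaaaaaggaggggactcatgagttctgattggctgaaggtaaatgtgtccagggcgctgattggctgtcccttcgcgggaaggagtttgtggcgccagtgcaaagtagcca
Chaf1b: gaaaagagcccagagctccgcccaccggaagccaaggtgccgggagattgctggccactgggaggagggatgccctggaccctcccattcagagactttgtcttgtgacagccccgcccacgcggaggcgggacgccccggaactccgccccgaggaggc
The matches in Mcm5 form a single stretch in which an octamer on each strand overlaps the other. Mcm6 holds the same kind of overlapping stretch and a further octamer nearer to its start. The single Pola1 match lies on the strand opposite to the gene. A match is only a run of letters, and its absence from Rpa2 and Chaf1b says nothing about E2F binding there.

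A pair of further motifs separated the S-phase genes from the 24 genes of G2 and mitosis examined beside them. The CCAAT box (CCAAT on either strand), the core of the element bound by NF-Y, was in 24 of the 39 members (61.5%), 19 of the 21 G2/M genes with a window (90.5%) and 41.1% of all genes with a window. The CHR element (TTTGAA or TTCGAA on either strand), which is typical of genes expressed late in the cell cycle, was in 7 of 39 members (17.9%), 17 of 21 G2/M genes (81.0%) and 21.7% of all genes. The octamer was thus found in a larger share of members than of G2/M genes, and the CHR in a smaller one. No test was made of these shares, since the genes were grouped by known function.

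**Figure D1:**
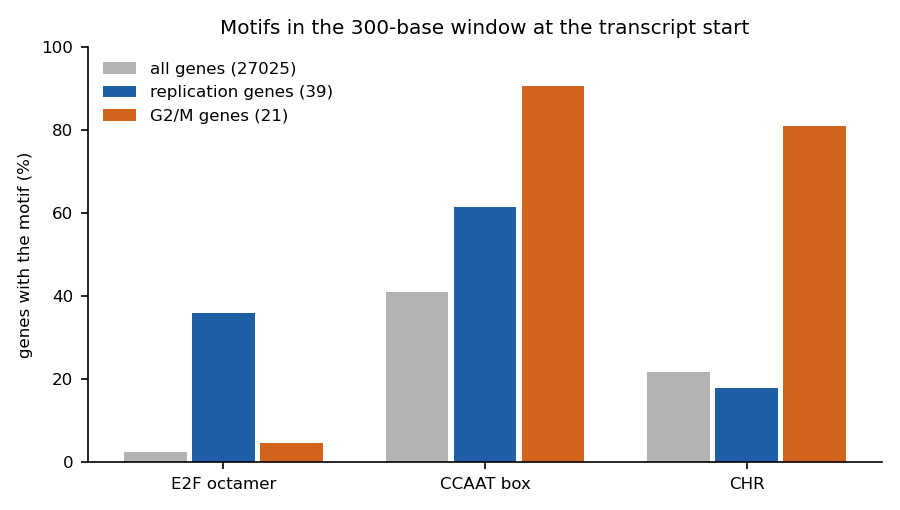
Percent of genes whose 300-base RefSeq promoter window holds an E2F octamer, a CCAAT box or a CHR element (y axis, from 0), for 27025 genes (grey), the 39 members with a window (blue) and 21 G2/M genes (orange). The octamer bar is highest for the members (35.9%), and the CCAAT and CHR bars are highest for the G2/M genes (90.5% and 81.0%).

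Across the whole set the genotypes were nearly level. The summed expression of the 47 genes was 8812, 8848, 8968 and 8822 CPM in Ddx41+/+ replicates 1 to 4, and 8950.1, 8622 and 8708 CPM in Ddx41+/- replicates 6 to 8. The means were 8863 ± 72.2 (SD, n = 4) and 8760 ± 170.2 CPM (SD, n = 3), so that the Ddx41+/- mean was 98.8% of the Ddx41+/+ mean, and the highest library exceeded the lowest by a factor of 1.04. The genotypes overlapped, with Ddx41+/- replicate 6 above 3 of the 4 Ddx41+/+ libraries and replicates 7 and 8 below all 4. Without replicate 7 the Ddx41+/- mean was 99.6% of the Ddx41+/+ mean. Since these are bulk samples, fewer cells in S phase and less RNA of these genes per cell cannot be told apart.

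None of the 47 genes passed a Benjamini-Hochberg adjusted p of 0.05 (edgeR quasi-likelihood test, two-sided), a threshold that 29 of 13340 genes passed (0.217%). DESeq2 and limma-voom also called 0 members, and the lowest adjusted p of a member was 0.404 with edgeR, 0.33 with DESeq2 and 0.392 with limma-voom. At an unadjusted p under 0.05 edgeR called 3 of 47 members (6.38%), against 10.6% of all genes tested, DESeq2 called 2, against 11.1% of all genes, and limma-voom called 3, against 10.7%. The 3 by edgeR were Pola1, which was higher in Ddx41+/- samples as 5.7% of all genes were at that threshold, and Rpa2 and Chaf1b, which were lower as 4.93% of all genes were. Without Ddx41+/- replicate 7 no member had an unadjusted p under 0.05 (edgeR, against 7.31% of all genes), and the same count, 0, was obtained without replicate 8 (against 8.12%). The median log2 fold change of the members was -0.013 without replicate 7, and the sum of each role group stayed between 94.7% (G1/S regulators) and 104.0% (polymerases and primase) of the Ddx41+/+ mean.

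The sizes of the differences were small and their intervals narrow. The log2 fold changes of the 47 members ran from -0.16 (Rpa2) to 0.18 (Pola1), 39 of them were below 0.1 in size, and their median was -0.018, beside -0.0048 over all genes tested. In all, 17 fold changes were positive and 30 negative. The 95% confidence intervals of 44 members included 0. The lowest bound of any of the 47 intervals was a 0.792-fold level in Ddx41+/- samples (Gins1) and the highest was a 1.29-fold level (Gins3), so that all 47 intervals lay within a 1.5-fold difference in either direction.

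**Figure D2:**
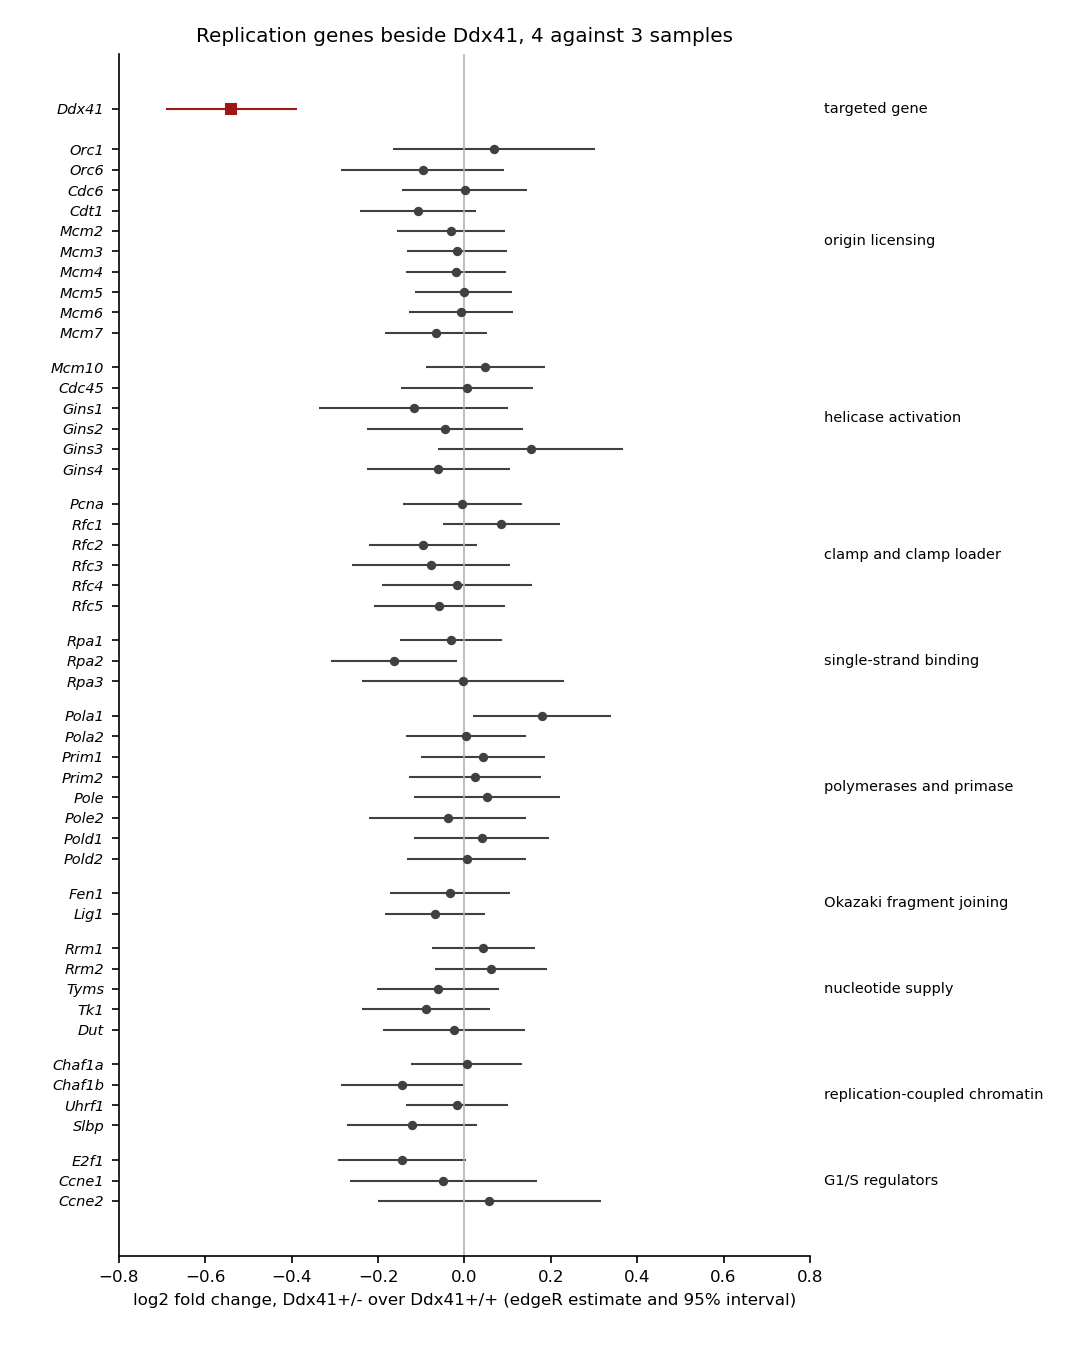
Log2 fold change of Ddx41 (square) and of each of the 47 members (circles), Ddx41+/- over Ddx41+/+ (x axis), with lines for the 95% confidence interval from edgeR and the genes grouped by role. The members lie between -0.16 and 0.18 and 44 of their intervals cross the line at 0, whereas Ddx41 is at -0.54.

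The replicates resembled each other closely for these genes. The median SD of log2 CPM within a genotype was 0.080 over the members and 0.10 over the 7109 other genes in the same range of mean expression, and the median ratio of the highest to the lowest library was 1.18 for members and 1.23 for those genes. That range ran from 23.3 to 751.5 CPM, and levels were not matched within it. The steadiest member was Mcm5 (SD 0.016, highest over lowest library 1.03), a subunit of the helicase. The least steady was Ccne2 (SD 0.19, highest over lowest library 1.46), which encodes cyclin E2, an activator of Cdk2 at the entry into S phase and one of the members with the fewest counts.

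**Figure D3:**
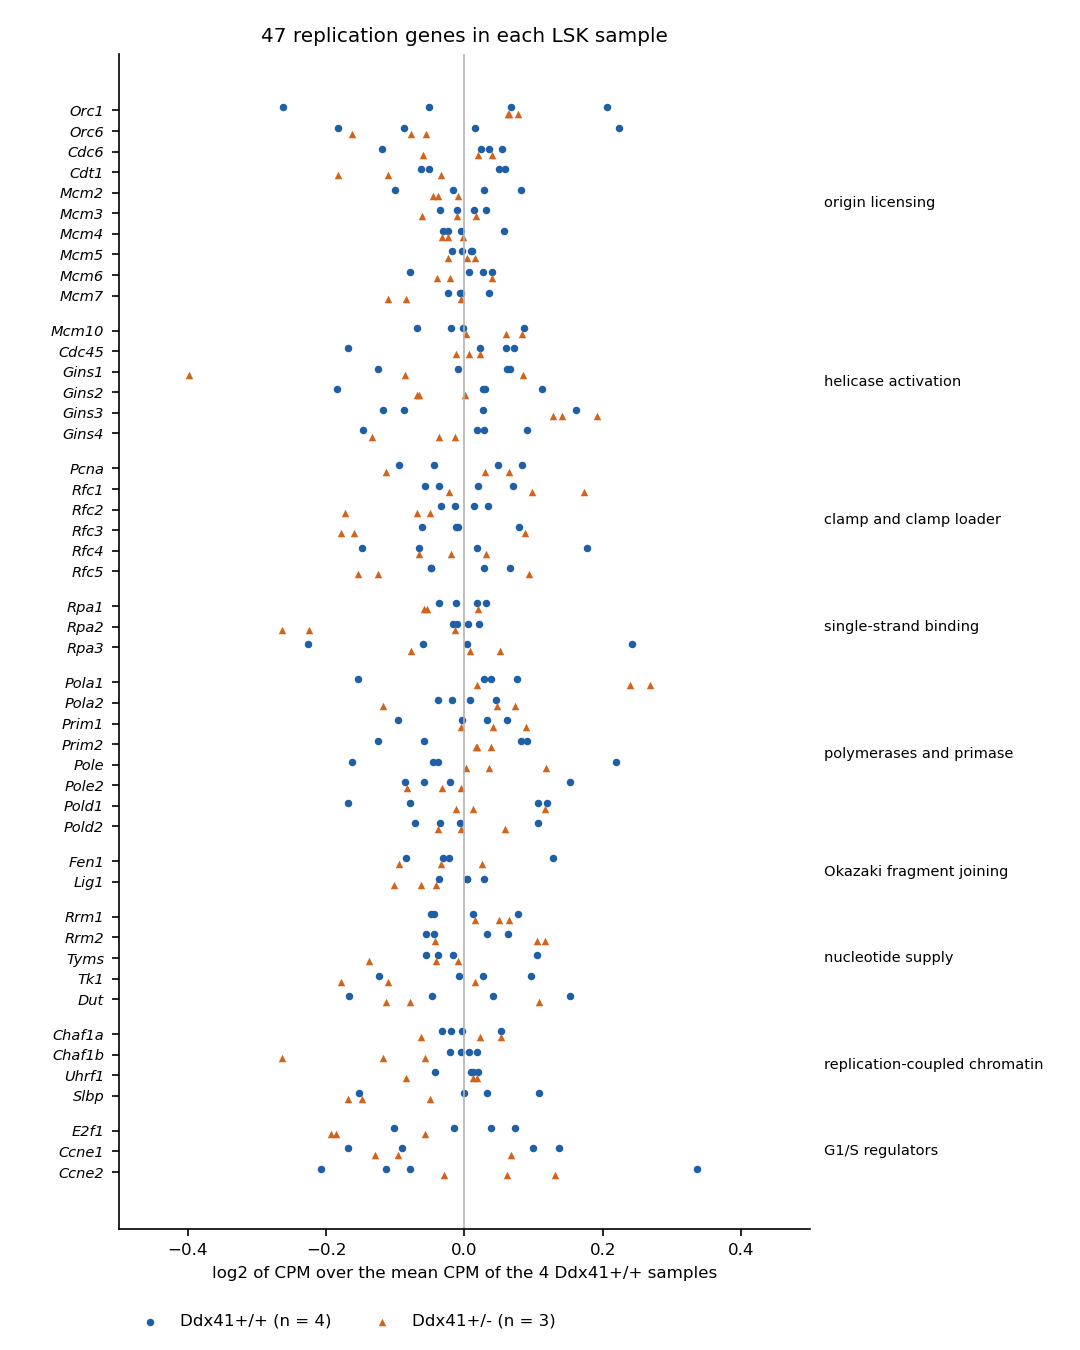
CPM of each of the 47 members in the 7 libraries, as log2 over the mean of the 4 Ddx41+/+ libraries (x axis), with blue circles for Ddx41+/+ and orange triangles for Ddx41+/- libraries and the genes grouped by role. The symbols of both genotypes are mixed in 44 of the 47 rows, and the Ddx41+/- triangles lie apart, to the left, for Rfc2, Lig1 and Chaf1b.

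The origin licensing genes were the most abundant group, with summed levels of 3519, 3500.3, 3465 and 3458 CPM in the Ddx41+/+ and 3495, 3361 and 3401 CPM in the Ddx41+/- libraries, a mean of 98.1% of the Ddx41+/+ level. Ddx41+/- replicates 7 and 8 were the lowest of the 7, and replicate 6 lay among the Ddx41+/+ libraries. Of its 10 genes 2 had a positive and 8 a negative fold change, and none passed the test.

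Mcm6, a subunit of the hexamer, was at 757, 774.5, 768 and 713 CPM in Ddx41+/+ and at 774, 742 and 732 CPM in Ddx41+/- libraries. Its lowest value was in a Ddx41+/+ library and the genotypes overlapped fully (log2 fold change -0.0069, SE 0.057, adjusted p = 0.981). Mcm5 was at 500.1, 510.1, 505 and 509.7 CPM against 508, 498 and 511.5 CPM, with a fold change of -0.0013 on the log2 scale and a 95% interval from 0.924-fold to 1.08-fold. Cdc6, the loader that acts with the origin recognition complex, had a mean of 84.2 CPM in both genotypes, with a log2 fold change of 0.00031.

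Cdt1, which delivers Mcm2-7 to the origin and is destroyed when S phase starts, had the lowest fold change of the group. It was at 181, 169, 168 and 182 CPM in Ddx41+/+ and at 171, 154 and 162 CPM in Ddx41+/- libraries. Replicates 7 and 8 were below every Ddx41+/+ library and replicate 6 was not (log2 fold change -0.11, SE 0.063, unadjusted p = 0.108, adjusted p = 0.58, edgeR), a value that ran from -0.15 to -0.073 as libraries were left out in turn. Orc1, the largest subunit of the origin recognition complex, was at 20.2 to 27.9 CPM in Ddx41+/+ and 25.3 to 25.5 CPM in Ddx41+/- libraries.

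The helicase activation genes (Mcm10, Cdc45 and the 4 GINS subunits) summed to 324, 355, 357 and 357 CPM in Ddx41+/+ and 356, 336 and 351 CPM in Ddx41+/- libraries, 99.7% of the Ddx41+/+ mean. The lowest sum was that of Ddx41+/+ replicate 1. Within GINS, a complex in which each subunit occurs once, the fold changes took both signs. Gins3 was at 20.5, 24.8, 22.6 and 20.9 CPM in Ddx41+/+ and at 25.4, 24.5 and 24.3 CPM in Ddx41+/- libraries, with replicates 7 and 8 below Ddx41+/+ replicate 2 (log2 fold change 0.15, SE 0.10, adjusted p = 0.628, edgeR). Gins1 was at 41.3, 44.75, 47.01 and 47.2 CPM against 47.8, 34.2 and 42.5 CPM (log2 fold change -0.12, SE 0.10, adjusted p = 0.737, edgeR). Replicate 6 had the highest Gins1 level of all libraries and replicate 7 the lowest, and the fold change was -0.23 without replicate 6 and 0.0022 without replicate 7.

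The clamp and its loader summed to 966, 1017, 1039 and 989 CPM in Ddx41+/+ and to 1014, 1001 and 962 CPM in Ddx41+/- libraries, 98.95% of the Ddx41+/+ mean. Pcna, the sliding clamp, was at 356, 393, 402.5 and 368.5 CPM against 388, 397.5 and 351 CPM, and the highest and lowest libraries belonged to different genotypes (log2 fold change -0.0045, adjusted p = 0.988, edgeR). Rfc1, the large subunit of the loader, was at 193, 186, 200.3 and 183 CPM against 188, 215 and 204 CPM, with replicates 7 and 8 above every Ddx41+/+ library (log2 fold change 0.085, adjusted p = 0.683, edgeR). That value was 0.038 without replicate 7 and 0.14 without replicate 6. The 4 small subunits all had negative fold changes, from -0.096 (Rfc2) to -0.017 (Rfc4).

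Rfc2 was 1 of the 3 members whose genotypes did not overlap, at 192, 202, 195 and 199 CPM in Ddx41+/+ and 190.3, 175 and 188 CPM in Ddx41+/- libraries. The other 2 were Lig1 and Chaf1b, and all 3 were lower in Ddx41+/- samples. They made up 6.38% of the members, beside 10.1% of all genes tested that did not overlap, of which 5.21% were lower and 4.85% higher. Rfc2 shares 952 bases of annotated exon with Lat2 on the opposite strand and Lig1 shares 247 with Zswim9. Of the 47 members 15 share exon bases with a gene on the opposite strand, and the sources differ on whether the library kit kept the strand. The counts of those genes may therefore be affected by reads from the shared bases, in a direction that depends on counting options not given.

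RPA, the trimer that coats single-stranded DNA, summed to 422, 436, 437 and 434 CPM in Ddx41+/+ and to 433, 399.9 and 403 CPM in Ddx41+/- libraries, 95.3% of the Ddx41+/+ mean. All 3 subunits had negative fold changes, which for Rpa1 and Rpa3 were -0.030 and -0.0034. Rpa2 had the lowest fold change of the 47 genes. It was at 137.0, 135.5, 138.5 and 134.9 CPM in Ddx41+/+ and at 135.1, 113.6 and 116.7 CPM in Ddx41+/- libraries. The Ddx41+/+ libraries and replicate 6 lay close together, and replicates 7 and 8 lay below them (log2 fold change -0.16, SE 0.069, unadjusted p = 0.0306, adjusted p = 0.408, edgeR). Its adjusted p ran from 0.152 to 0.797 over 14 other fits, and the lowest was that without replicate 6, where the log2 fold change was -0.25. Without replicate 7 it was -0.12, with an unadjusted p of 0.138 (edgeR).

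The polymerases and primase were the group with the most positive fold changes, 7 of 8 genes. They summed to 1026, 957, 944 and 961 CPM in Ddx41+/+ and to 983, 999.7 and 1038 CPM in Ddx41+/- libraries, 103.6% of the Ddx41+/+ mean, and the genotypes overlapped because Ddx41+/+ replicate 1 was above replicates 6 and 7. Pola1, the catalytic subunit of polymerase alpha, which synthesises the first DNA of each fragment, lies on the X chromosome and had the highest fold change of the members. It was at 156.7, 151.8, 152.7 and 133.8 CPM in Ddx41+/+ and at 150.6, 175.7 and 179.3 CPM in Ddx41+/- libraries. Replicates 7 and 8 were above all 4 Ddx41+/+ libraries and replicate 6 was below 3 of them (log2 fold change 0.18, SE 0.075, unadjusted p = 0.0289, adjusted p = 0.404, edgeR). The fold change was 0.25 without replicate 6, and 0.15 and 0.13 without replicates 7 and 8, where the unadjusted p was 0.0975 and 0.136 (edgeR).

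The partners of Pola1 in the same 4-subunit enzyme had smaller fold changes, though the difference from Pola1 was not tested. Pola2, the accessory subunit, had a log2 fold change of 0.0032, and the primase subunits Prim1 and Prim2 had 0.043 and 0.025. For polymerase epsilon, which extends the leading strand, the catalytic subunit Pole had 0.052 and Pole2 -0.039. For polymerase delta, which extends the lagging strand, Pold1 had 0.040 and Pold2 0.0057. Pold2, the member of the group with the highest level per kilobase, was at 136, 126, 120.2 and 123 CPM in Ddx41+/+ and at 126, 132 and 123 CPM in Ddx41+/- libraries. The genotypes overlapped, and the fold change of Pold2 turned negative when libraries were scaled by their totals or their upper quartile.

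Okazaki fragment joining was represented by Fen1, the flap nuclease, and Lig1, the ligase. Lig1 was at 300.1, 292, 305 and 300.004 CPM in Ddx41+/+ and at 287, 279 and 291 CPM in Ddx41+/- libraries. The highest Ddx41+/- value was just under the lowest Ddx41+/+ value (log2 fold change -0.068, SE 0.055, adjusted p = 0.705, edgeR). Fen1 ran from 169 to 196 CPM and from 168 to 182 CPM in the respective genotypes, with a log2 fold change of -0.033.

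The nucleotide supply genes, whose products make and guard the precursors of DNA, summed to 1191, 1239, 1337 and 1247 CPM in Ddx41+/+ and to 1314, 1240 and 1237 CPM in Ddx41+/- libraries, 100.8% of the Ddx41+/+ mean. Both subunits of ribonucleotide reductase, the enzyme that makes deoxynucleotides, had positive fold changes. Rrm1 was at 514, 534, 559 and 512 CPM against 554, 536 and 549 CPM (log2 fold change 0.044). Rrm2, the subunit that cycles with S phase, was at 244, 246, 265 and 259 CPM against 275, 272.5 and 246 CPM (log2 fold change 0.061, adjusted p = 0.78, edgeR), and in both genes the genotypes overlapped. With libraries left out in turn, Rrm1 was lowest at 0.028 without Ddx41+/+ replicate 4 and highest at 0.071 without replicate 3 of that genotype. Rrm2 was lowest at 0.033 when Ddx41+/- replicate 6 was left out and highest at 0.11 when replicate 8 was. Tyms, Tk1 and Dut had log2 fold changes of -0.061, -0.089 and -0.025.

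Among the genes of replication-coupled chromatin, which rebuild nucleosomes and DNA methylation behind the fork, Chaf1b passed an unadjusted p of 0.05. It encodes the middle subunit of CAF-1, a histone chaperone. It was at 104.3, 103.1, 105.1 and 105.9 CPM in Ddx41+/+ and at 100.5, 96.3 and 87.1 CPM in Ddx41+/- libraries. All 3 Ddx41+/- values lay under a tight Ddx41+/+ range (log2 fold change -0.14, SE 0.067, unadjusted p = 0.0464, adjusted p = 0.456, edgeR). Without replicate 8, the lowest of them, the fold change was -0.088 with an unadjusted p of 0.243, and without replicate 7 it was -0.16 with an unadjusted p of 0.0543 (edgeR). Chaf1a, its large partner, had 0.0056 on the same scale. Chaf1a shares 4648 bases of annotated exon with Ubxn6 on the opposite strand, so its counts may be affected as described for Rfc2.

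Uhrf1, which recognises hemimethylated DNA after replication, was at 379, 377, 363 and 377 CPM in Ddx41+/+ and at 377.5, 353 and 379 CPM in Ddx41+/- libraries, with the lowest value in replicate 7 (log2 fold change -0.017). Slbp, which binds the stem-loop of histone messages, ran from 110.0 to 132 CPM and from 109 to 118 CPM (log2 fold change -0.12, adjusted p = 0.58, edgeR). The group summed to 745, 745, 744 and 754 CPM against 745, 698 and 728 CPM, 96.8% of the Ddx41+/+ mean.

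The G1/S regulators E2f1, Ccne1 and Ccne2 summed to 143, 138, 146 and 147 CPM in Ddx41+/+ and to 141, 133 and 131 CPM in Ddx41+/- libraries, 94.1% of the Ddx41+/+ mean. E2f1, an activating E2F factor that is itself an E2F target, was at 94.2, 88.7, 83.5 and 92.1 CPM in Ddx41+/+ and at 86.1, 78.75 and 78.4 CPM in Ddx41+/- libraries. Replicates 7 and 8 were below every Ddx41+/+ library, and replicate 6 was above Ddx41+/+ replicate 3 (log2 fold change -0.14, SE 0.070, unadjusted p = 0.0552, adjusted p = 0.484, edgeR). The cyclin E genes had -0.049 (Ccne1) and 0.057 (Ccne2).

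Libraries differed in which members were high. Ddx41+/+ replicate 3 held the highest value of 17 members, 11 of them among the 23 with principal transcripts shorter than the median of 2559 bases, while Ddx41+/+ replicate 1 held the lowest value of 12, 9 of them among those 23. Summed over the 23, the level was 2470 CPM in Ddx41+/+ replicate 1 and 2712 CPM in replicate 3, with the Ddx41+/- libraries between 2439 and 2633 CPM. Over the 24 longer genes the same libraries had 6342 and 6256 CPM, in the reverse order. Ddx41+/- replicate 7 held the lowest value of 16 members and the highest of 2 (Rfc1 and Prim1), and replicate 6 held the lowest of 0 members. The part that these differences between libraries have in the genotype comparison was not tested.

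Ddx41+/- replicate 6 was the library that kept most ranges overlapping. Without it the genotypes did not overlap in 12 of 47 members, 2 higher (Rfc1 and Pola1) and 10 lower, but 23.1% of all genes tested then did not overlap either, and 12 of 47 is close to that share. The number of members with an unadjusted p under 0.05 was then 5 (edgeR), against 13.7% of all genes, and no member had an adjusted p under 0.05.

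Levels between genes were compared per kilobase of the principal transcript. On this scale of CPM per kilobase, in the Ddx41+/+ mean, Mcm6 (258.8) and Pcna (250.3) were the highest members and Orc1 (8.03), Ccne2 (8.38) and Gins3 (8.82) the lowest. Mcm7 (203), Mcm3 (179.7), Mcm5 (149.7), Rrm1 (133) and Mcm2 (129) followed the highest pair. The licensing factors that act before the hexamer is loaded were lower than the hexamer itself, with Cdt1 at 80.0, Orc6 at 49.0 and Cdc6 at 32.9.

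Subunits of one complex did not have equal levels per kilobase. Within Mcm2-7, where 1 copy of each subunit forms the ring, Mcm6 exceeded Mcm4 by a factor of 3.09 in Ddx41+/+ and 3.12 in Ddx41+/- samples. When the length of all merged exons was used, a choice made after these values were seen, the factor was 2.58 in Ddx41+/+ samples and the lowest subunit was Mcm2. Within GINS the highest subunit exceeded the lowest, Gins3, by a factor of 4.70 in Ddx41+/+ samples (Gins1) and 3.92 in Ddx41+/- samples (Gins4). Within RFC the highest exceeded the lowest, Rfc3, by 1.41 in Ddx41+/+ (Rfc5) and 1.45 in Ddx41+/- samples (Rfc4). By principal transcript length, the order of subunits was the same in both genotypes for Mcm2-7, RPA, polymerase alpha with primase, ribonucleotide reductase and CAF-1. It differed for GINS and RFC, and the highest RFC subunits, Rfc5 and Rfc4, were close in Ddx41+/+ samples (47.5 and 47.1). The GINS difference rested on Ddx41+/- replicate 7, where Gins1 was lowest (34.2 CPM). Without that library Gins1 was again the highest GINS subunit. The factors in Ddx41+/- samples were then 4.21 for GINS and 1.43 for RFC. Merged exons were not used for GINS and RFC. They lengthen Gins1 from 1087 to 1516 bases and Rfc5 from 2796 to 4669, and leave Gins4 at 1349. The orders within GINS and RFC, and their difference between genotypes, may therefore depend on the length used.

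**Figure D4:**
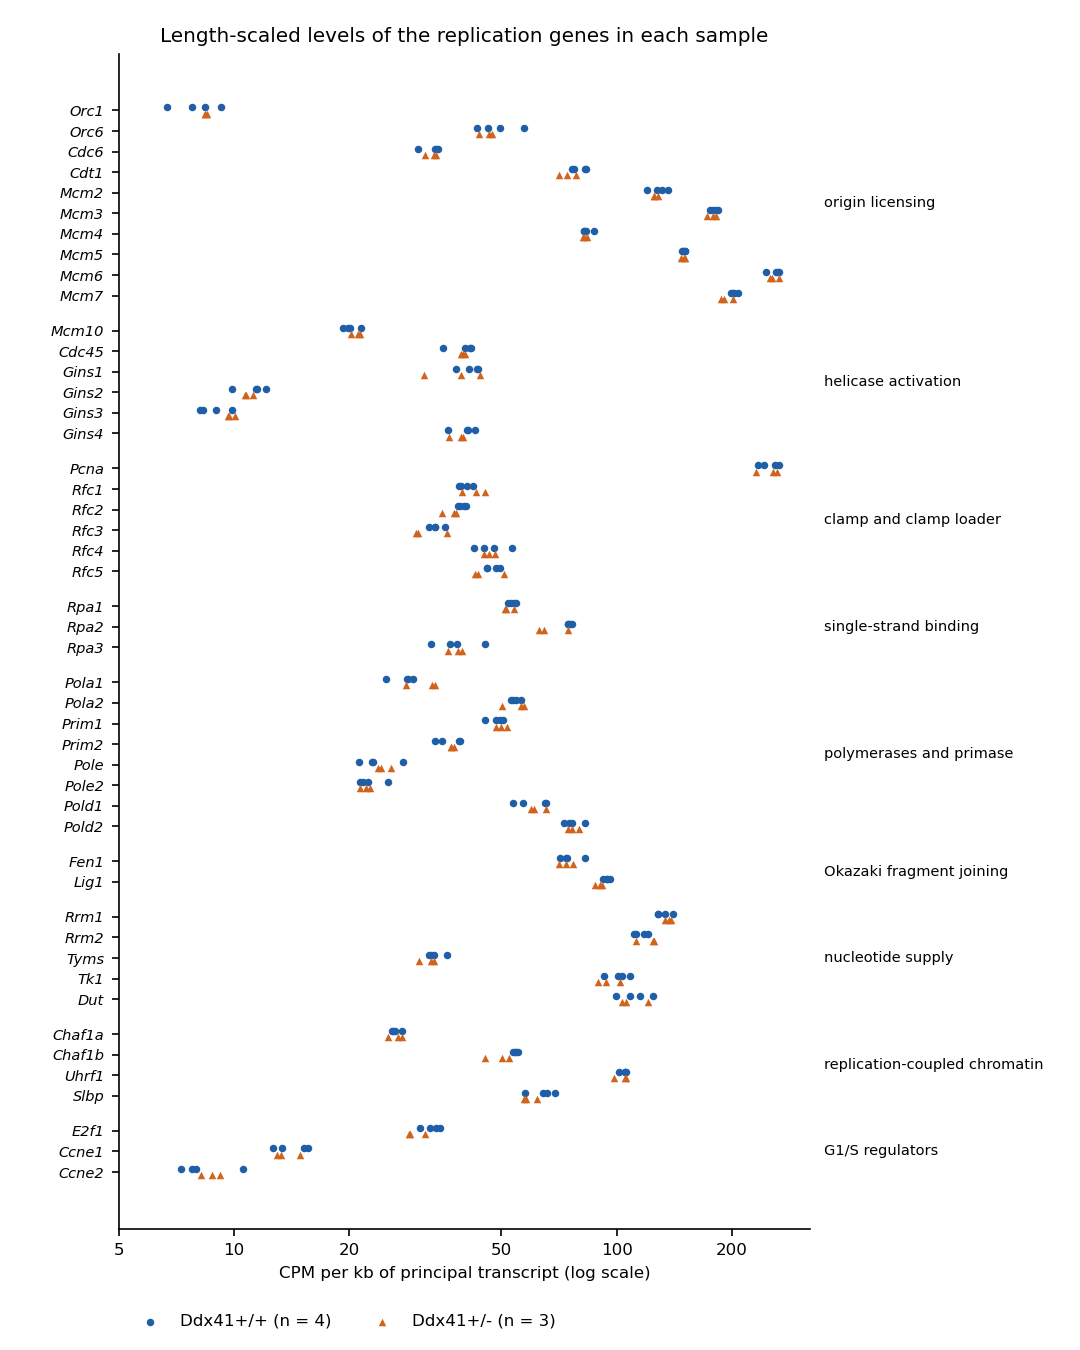
Level of each member in each library in CPM per kilobase of the principal transcript (x axis, log scale), with blue circles for the 4 Ddx41+/+ and orange triangles for the 3 Ddx41+/- libraries and the genes grouped by role. The Ddx41+/+ means run from 8.03 (Orc1) to 258.8 (Mcm6), a wider range than that between the libraries of any member.

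Fold changes were also set beside the promoter letters. The 14 members with an octamer had a median log2 fold change of -0.012, with 5 positive and 9 negative, and the 25 with a window but no octamer had -0.025, with 9 positive and 16 negative. Pola1 and Gins3, the highest of all members, were among those with an octamer, as was Cdt1, and Rpa2, Chaf1b and E2f1 were among those without. Rfc1 and Rrm2, which had positive fold changes, were also among those without. These members were picked by their fold changes, and a link between the octamer and the fold change was not tested.

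Neighbouring gene groups gave the wider cell cycle. Of 40 other replication genes, all tested, none passed an adjusted p of 0.05 with edgeR, and the sum of the 40 in Ddx41+/- samples was 101.0% of the Ddx41+/+ mean (median log2 fold change 0.017). An unadjusted p under 0.05 was found for 3 (7.5%), below the 10.6% of all genes, and for 0 without replicate 7. The sum of the 40 was 101.4% of the Ddx41+/+ mean when that replicate was left out. The 3 were Top1, a topoisomerase that relieves torsion ahead of the fork (log2 fold change 0.21, adjusted p = 0.30), Orc3 (0.18, adjusted p = 0.403) and Pole4 (-0.20, adjusted p = 0.442). Of 17 E2F and pocket protein genes, none passed the adjusted threshold and 2 (11.8%) had an unadjusted p under 0.05, close to the 10.6% of all genes. Tfdp1, the dimer partner of E2F factors, was at 370.3 to 387 CPM in Ddx41+/+ and 397 to 424 CPM in Ddx41+/- libraries (log2 fold change 0.12, adjusted p = 0.469), and Lin37, a subunit of the DREAM repressor complex, was at 20.6 to 25.0 and 18.3 to 19.5 CPM (-0.30, adjusted p = 0.314). The genotypes did not overlap in either gene, a share of the list (11.8%) close to the 10.1% of all genes, and without replicate 7 only Lin37 kept an unadjusted p under 0.05.

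Of 24 G2/M genes, a list that includes Ccna2, Top2a and Mki67, none passed the adjusted threshold. An unadjusted p under 0.05 (edgeR) was found for 3 (12.5%), all higher in Ddx41+/- samples, beside 10.6% of all genes in either direction and 5.7% higher. Without replicate 7 the count was 2 (Mki67 and Cenpe), where 7.31% of all genes were called. The sum of the 24 was then 106.2% of the Ddx41+/+ mean. Mki67, the proliferation marker, was at 856, 726, 688 and 805 CPM in Ddx41+/+ and at 828, 918 and 1014 CPM in Ddx41+/- libraries (log2 fold change 0.26, adjusted p = 0.277, edgeR). Replicates 7 and 8 had the highest Mki67. Among members picked by their p-values, Rpa2, E2f1 and Cdt1 were lowest in these libraries, and Pola1 and Rfc1 were highest. The other 2 G2/M genes past the unadjusted threshold were Cenpe (0.20) and Top2a (0.15). The median log2 fold change of the 24 was 0.015, with 15 positive and 9 negative. Their sum was 105.8% of the Ddx41+/+ mean, most of which lay in Mki67 and Top2a, since the sum of the other 22, taken after these values were seen, was 101.2%. The replication genes were at 98.8%, and the difference between these groups was not tested.

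Marker lists of other cells within or near the LSK gate were summed beside the replication genes. The lists were chosen with earlier results of these data known, so their counts are description only. The 16 genes of long-term stem cells summed to 525, 462, 415 and 402 CPM in Ddx41+/+ and to 361, 383 and 373 CPM in Ddx41+/- libraries (82.6% of the mean, 8 of 16 lower at an unadjusted p under 0.05, none at the adjusted threshold). The 10 granulocyte-monocyte progenitor genes were at 113.8% of the Ddx41+/+ mean (sums of 20089 to 24139 against 24872 to 26468 CPM, 4 higher at the unadjusted threshold). The 10 mature neutrophil genes summed to 737 to 1252 CPM in Ddx41+/+ and 1339 to 2290 CPM in Ddx41+/- libraries (174.8%, all 10 higher at the unadjusted and 1 at the adjusted threshold). Without replicate 7 these lists were at 81.4%, 111.9% and 182.3% of the Ddx41+/+ mean. At the unadjusted threshold (edgeR) 7 stem cell genes were then lower, and 2 progenitor and 8 neutrophil genes higher. Of all genes 7.31% were called in either direction in that fit. Of all genes tested in the 7 libraries (edgeR), 4.93% were lower and 5.7% higher at the unadjusted threshold, and 0.217% passed the adjusted one. In Ddx41+/- replicate 6, which had the highest neutrophil sum, the replication genes had the second highest sum of the 7 libraries.

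**Figure D5:**
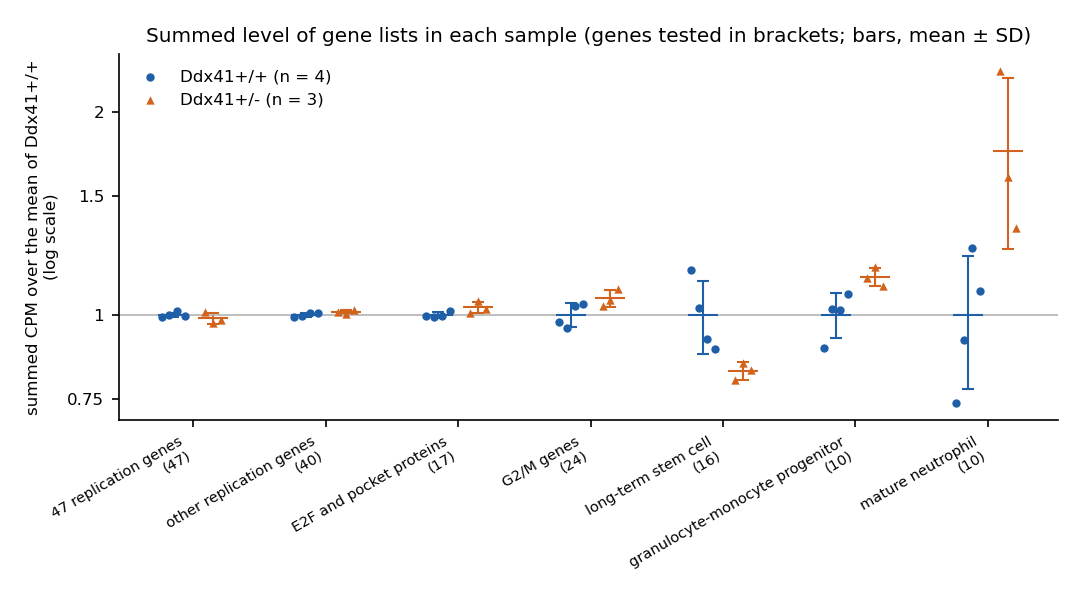
Summed CPM of 7 gene lists in each library, divided by the mean of the Ddx41+/+ libraries (y axis, log scale), with circles for Ddx41+/+ and triangles for Ddx41+/- libraries and bars for the mean ± SD. The replication genes and the other replication genes lie close to 1 in every library, the long-term stem cell genes lie below 1 in the 3 Ddx41+/- libraries (82.6% on average), and the mature neutrophil genes lie above it (174.8%).

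Further lists covered other lineages. The 6 megakaryocyte genes were at 76.9% (175 to 211 against 132 to 157 CPM, 3 lower at the unadjusted and 1 at the adjusted threshold). The 9 B-lineage genes summed to 44.4 to 66.6 against 60.7 to 82.5 CPM (all 9 fold changes positive, 3 higher at the unadjusted threshold). Of the 10 erythroid genes the 8 tested summed to 386 to 601 against 423 to 494 CPM, with 0 called. Hba-a1 and Hbb-bt, at 0 counts in every library, were not in that sum. Of the 10 T and NK genes, 4 passed the filter, and Cd3e, Cd3d, Cd3g, Ncr1 and Gzma had at most 13 counts in any library. The 8 genes of stroma and endothelium summed to 151 to 178 against 170 to 182 CPM. At the unadjusted threshold 1 of these 8 was lower, and 0 of the 4 T and NK genes were called. Without replicate 7 the megakaryocyte, B-lineage, erythroid, T and NK, and stroma sums were at 77.0%, 120.8%, 96.1%, 106.8% and 105.2% of the Ddx41+/+ mean. At the unadjusted threshold (edgeR) the counts were then 3 lower (megakaryocyte), 1 higher (B-lineage), and 1 higher and 1 lower (stroma). Of all genes 7.31% were called in either direction in that fit. Among the B-lineage genes Cd79b (-0.028) and Ms4a1 (-0.77) then had negative log2 fold changes. The part of these marker differences in the levels of the replication genes was not tested.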

How the data were processed

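LSK cells were sorted from the bone marrow of recipient mice, RNA was isolated with a Quick-RNA kit, and mRNA libraries were sequenced. The deposited table holds whole-number read counts per gene symbol for 7 samples, which the authors made with HISAT2 2.0.5 and featureCounts 1.5.2 on mm10 after FastQC 0.11.7, per the submitters' processing notes. The gene annotation and the strand setting of the counting are not given in the sources used here, and the labels name a stranded library kit whereas the paper's methods name a kit that does not keep strand. Per the deposited table, the Ddx41+/- library numbered 5 had been removed, for which no reason is stated. Totals ranged from 32234499 to 43751290 counts. The lowest count of a member was 717 (Gins3), and counting error was not separated from the spread between samples.

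Counts were tested in R 4.3.3 with edgeR 4.0.16 (filterByExpr, TMM scaling, which also gave the CPM, robust quasi-likelihood test, genotype as the only term, all 7 samples), with Benjamini-Hochberg adjustment over the 13340 genes that passed the filter. Standard errors were taken from the fold change and its F statistic, and 95% intervals from the same fit. The common biological coefficient of variation was 12.9%. Since the labels do not tie each sample to a mouse of its own, p-values measure only the spread between these samples, which may be technical. Steps were tested on simulated data. Levels between genes were divided by the length of the longest principal protein-coding transcript (GENCODE M21, GRCm38). Promoter windows were those of RefSeq on GRCm38.p6, and 8 members had none (Mcm4, Gins1, Gins2, Gins4, Rfc2, Prim2, Pole and Ccne2). The alternatives were DESeq2 1.42.0 size factors, library totals alone, upper-quartile scaling, no filter, non-robust dispersion, DESeq2 and limma-voom (limma 3.58.1) as tests, and leaving out each sample in turn.

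The members and the other gene lists were chosen with earlier results of these data known. The members described with a value in every library were, by rule, the 4 with the smallest p in each direction and the member with the highest level per kilobase in each role. Mcm5 and Rfc2 were added after their values were seen, for their low spread and lack of overlap, as were the other members named in passing.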

Additional observations from a re-analysis of the deposited data

Results flagged for a closer look

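Among 58 values examined over the 4 Ddx41+/+ libraries (the members, their role groups and whole-set sums), 4 had a library whose gap to its nearest neighbour took up an unusually large share of the group's range, where chance gives about 1 in 20, or 2.9 of 58. The summed level of the helicase activation genes was low in Ddx41+/+ replicate 1, at 324 CPM beside 355 CPM in the nearest library (gap over range 0.940). The RPA sum was low in the same library, at 422 beside 434 CPM (0.840). Uhrf1 was low in Ddx41+/+ replicate 3, at 363 beside 377 CPM (0.836), and the sum of the chromatin genes was high in Ddx41+/+ replicate 4, at 754 beside 745 CPM (0.917). In the last 3 cases the range itself was narrow, so that small gaps were enough.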

How the results depend on the processing

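No member passed an adjusted p of 0.05 in any of the 14 alternatives, the lowest being 0.152 (Rpa2 without Ddx41+/- replicate 6). The median log2 fold change of the members stayed negative in all 14 (-0.038 to -0.011) and their sum was 97.8% to 99.6% of the Ddx41+/+ mean in the 10 that change the sum. The Ddx41 log2 fold change ran from -0.56 to -0.50 with adjusted p up to 0.0324. The number of all genes past the adjusted threshold was 29, and became 15 with library totals, 91 with no filter, 14 with non-robust dispersion, 164 with DESeq2, 10 with limma-voom, and 7 to 41 when a library was left out. Members with an unadjusted p under 0.05 numbered 0 (without Ddx41+/- replicate 7 or 8) to 5 (without replicate 6), with 1 without Ddx41+/+ replicate 2 or 4 (8.26% and 9.67% of all genes), and members without overlap 4 to 12, with 7 and 8 without Ddx41+/+ replicates 1 and 3 (16.3% and 15.2% of all genes). Fold changes near 0 changed sign. Pold2 was -0.010 with library totals and -0.0021 with upper-quartile scaling, and -0.022 to 0.043 when a library was left out. The same ranges were -0.032 to 0.0094 for Mcm6, -0.23 to 0.0022 for Gins1, -0.041 to 0.047 for Pcna and -0.035 to 0.014 for Uhrf1. Chaf1b ran from -0.19 to -0.088 and Rfc1 from 0.038 to 0.14 in the same fits. The cause was not tested. No paired analysis was possible because the replicate numbers of the genotypes (1 to 4 and 6 to 8) do not overlap. With 4 and 3 samples, member intervals had a median SE of 0.068 on the log2 scale, which limits the differences that could be detected. LSK cells are a mixture, and shifts within them cannot be told apart from changes per cell.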
